A study of Mus musculus with 6 samples.

Results

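The mRNAs of 6 genes for the cGMP-gated channel subunits and the sodium/calcium-potassium exchangers of rod and cone outer segments were followed in *Nrl*-/- and WT mouse retina. The genes were chosen by symbol, namely *Cnga1* and *Cngb1* (rod channel), *Cnga3* and *Cngb3* (cone channel), *Slc24a1* (rod exchanger) and *Slc24a2*. The last is the exchanger first assigned to cones, is also made by neurons of the brain, and is counted here with the cone genes. Every transcript with 1 of these symbols was taken, which gave 7 transcripts of 6 genes among 15142 mRNA transcripts of 12145 gene symbols. RNA was sequenced from whole retinas of 3 *Nrl*-/- and 3 WT mice at postnatal day 21, with 1 library for each mouse. The labels give the strain as C57BL/6 for both genotypes, and the study's methods as C57Bl/6J. *Nrl* encodes a leucine zipper protein that directs photoreceptor precursors toward rods. It is absent from every cell of *Nrl*-/- mice, whose photoreceptors are cone-like. The study used these genotypes to set RNA-seq beside microarrays and qRT-PCR and to assess ways of analyzing the reads.

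In the dark, cGMP holds the outer segment channel open, and sodium and calcium enter. Light lowers cGMP through a phosphodiesterase, the channel closes, and the exchanger keeps removing calcium. The fall in calcium releases the guanylate cyclases from inhibition and helps to end the response. The rod channel is built of *Cnga1* and *Cngb1* subunits and the cone channel of *Cnga3* and *Cngb3* subunits. The alpha subunits form channels on their own when made in cultured cells, and the beta subunits modify their gating and their sensitivity to calmodulin. Loss of rod or cone subunits in humans causes retinitis pigmentosa or achromatopsia.

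Levels are given as FPKM, a read density that is scaled to transcript length and to the mapped reads of a library. Log2 fold changes are means of log2(FPKM + 1) over *Nrl*-/- libraries less those over WT libraries. The threshold for a call was an adjusted p under 0.05 from limma with Benjamini-Hochberg adjustment over the 15142 transcripts. The files hold no read counts, and the read totals that the study gives were not used here, so no counting interval stands beside a value. The targeted gene, *Nrl* (NM_001136074), was at 0.919, 0.879 and 0.959 FPKM in *Nrl*-/- libraries, against 552, 583 and 501 FPKM in WT libraries. WT replicate 2 stood apart from the other libraries in 4 Y-linked genes (*Uty*, *Kdm5d*, *Eif2s3y* and *Ddx3y*), which were at 0.00696 to 0.0644 FPKM there and at 4.98 to 39.5 FPKM in the other 5 libraries. The labels give no sex, but these values are those of a female beside males, so sex was not balanced between the genotypes. Leaving out WT replicate 2 changed the call of none of the 7 transcripts. Summed rod markers ranged over 25.2 to 25.4 FPKM in *Nrl*-/- and 5130 to 5750 FPKM in WT libraries (6 of 6 lower). The rod markers were *Nrl*, *Nr2e3*, *Gnat1*, *Pde6b*, *Reep6* and *Kcnj14*. They thus include the targeted gene, whose fall is given by the knockout and says nothing more about rods. Summed cone markers ranged over 6220 to 6400 FPKM in *Nrl*-/- and 463 to 560 FPKM in WT libraries (7 of 7 higher). All 6 ON bipolar, 5 amacrine or horizontal, 6 ganglion and 5 Müller cell markers of the retina were measured as well. Summed amacrine or horizontal markers ranged over 131 to 142 FPKM in *Nrl*-/- and 125 to 148 FPKM in WT libraries. Ganglion sums were 303 to 314 FPKM in *Nrl*-/- and 294 to 329 FPKM in WT libraries. Müller sums were 793 to 862 FPKM in *Nrl*-/- and 823 to 873 FPKM in WT libraries. These sums overlapped between genotypes, whereas those of ON bipolar markers did not. Single markers were called all the same. They were 1 amacrine or horizontal, 1 ganglion and 1 Müller marker higher and 1 ganglion marker lower, beside 28.3% higher and 10.2% lower over all genes.

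The 3 rod transcripts fell in *Nrl*-/- retina, and the 4 counted with the cone genes, 2 of them isoforms of *Slc24a2*, rose. These are 3 of 7 lower against 10.1% of all transcripts and 4 of 7 higher against 26.7% of all transcripts (36.8% in either direction). After 3 other scalings, 14.8% to 15% of all transcripts were lower and 16.2% to 16.3% higher, and the 7 calls stood. In each of the 7 the libraries of the 2 genotypes did not overlap, a separation seen in 14.2% of all transcripts for lower and 34.9% for higher values (49.1% together). The median size of the log2 fold change was 4.19 over the 7 transcripts and 0.17 over all transcripts. All 7 had a size of at least 1, as did 572 (3.78%) of all transcripts. These genes were chosen as rod and cone genes with earlier results known, so the counts describe them and do not test them. In whole retina, fewer cells of a type and less RNA per cell cannot be told apart.

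**Figure D1:**
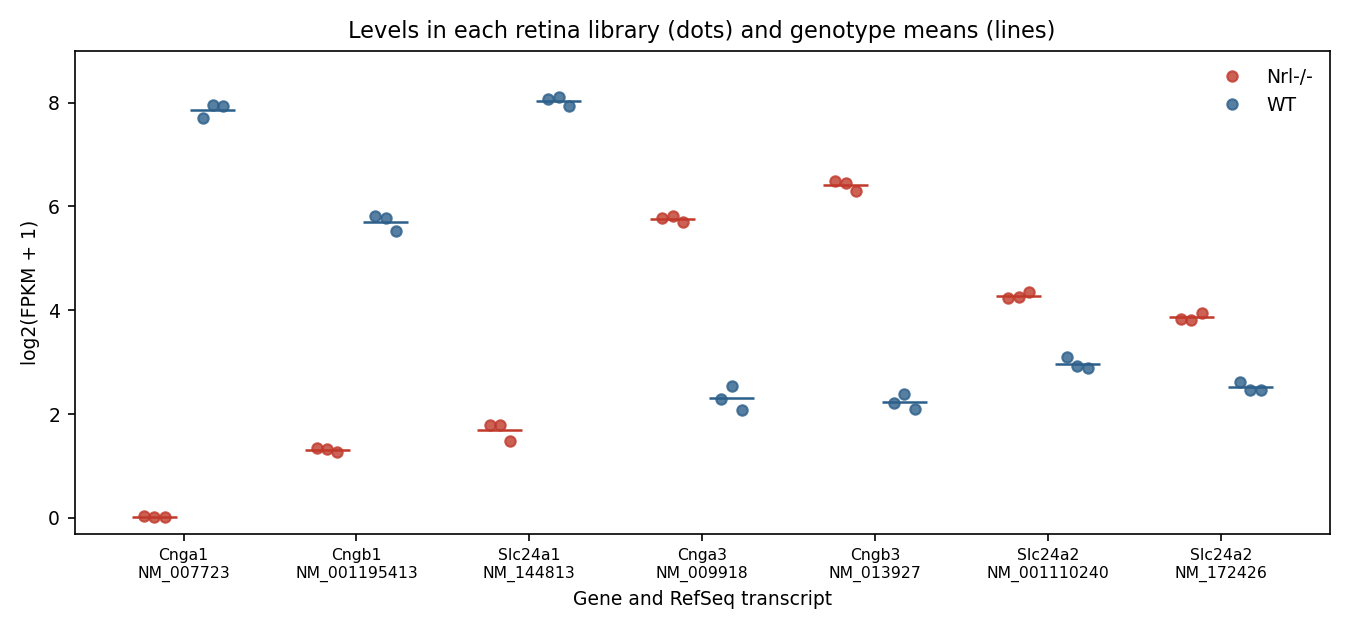
Level of each of the 7 transcripts as log2(FPKM + 1), with 1 dot for each library, red for *Nrl*-/- and blue for WT, and lines at the means of 3 libraries. The 3 rod transcripts lie lower and the 4 counted with the cone genes higher in *Nrl*-/- retina, with no overlap between genotypes.

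*Cnga1* (NM_007723) encodes the alpha subunit that forms the pore of the rod channel. In NCBIM37, which is mm9, it lies on the minus strand at chr5:72994935-73033991, and its longest transcript has 9 exons. Its level was 0.0281, 0.0140 and 0.0140 FPKM in *Nrl*-/- libraries, against 208, 246 and 243 FPKM in WT libraries. All 3 *Nrl*-/- values are within a few rounding steps of 0, since 1 step of the deposited log2 scale equals 0.00696 FPKM there. The means were 0.0187 ± 0.00817 FPKM in *Nrl*-/- and 233 ± 21.0 FPKM in WT retina (SD, n = 3 each). *Cnga1* had a log2 fold change of -7.84 (SE 0.07, 95% CI -8.00 to -7.67, adjusted p = 7.3e-12 from limma), the fourth largest fall in the table. The size of this fall depends on the 1 added to the FPKM, and with 0.1 in its place it was -10.93. *Cnga1* ranked 15136 of 15142 transcripts by level in *Nrl*-/- and 52 in WT retina, and it was the only one of the 7 that entered the table through WT libraries alone.

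*Cngb1* (NM_001195413) encodes the beta subunit of the rod channel and, from the same gene, the free glutamic acid-rich proteins that bind *Prph2* at disc rims. In NCBIM37 it lies on the minus strand at chr8:97762945-97808081, a span of 45.1 kb. RefSeq gives the gene 67.5 kb in GRCm38, so the NCBIM37 model may leave out a part of it. The level of *Cngb1* was 1.55, 1.51 and 1.41 FPKM in *Nrl*-/- libraries, against 55.5, 54.0 and 44.9 FPKM in WT libraries. Unlike *Cnga1*, it stayed above 1 FPKM in every *Nrl*-/- library. The log2 fold change was -4.39 (SE 0.08, 95% CI -4.58 to -4.20, adjusted p = 1e-09 from limma), a 21.0-fold lower FPKM + 1 in *Nrl*-/- retina. The value does not separate the channel subunit from the shorter glutamic acid-rich products, since the table holds 1 *Cngb1* transcript.

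*Slc24a1* (NM_144813) encodes the rod exchanger, which uses the sodium and potassium gradients to carry calcium out of the outer segment. It lies on the minus strand at chr9:64770668-64799414 and has 10 exons. *Slc24a1* was at 2.48, 2.48 and 1.79 FPKM in *Nrl*-/- libraries, against 268, 275 and 243 FPKM in WT libraries. In *Nrl*-/- libraries *Slc24a1* thus stayed at 1.79 FPKM or more while *Cnga1* did not pass 0.0281 FPKM. In WT retina the 2 genes were close in level, at ranks 44 and 52 of all transcripts, and the ranges of their libraries overlapped. The log2 fold change of *Slc24a1* was -6.34 (95% CI -6.55 to -6.13), the sixth largest fall.

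The sequences just before the start sites are shown for the 3 rod genes because they fell together, with the cone gene *Cnga3* beside them because it moved the other way. They are RefSeq sequences of GRCm38.p6, each of 250 bases on the gene's own strand, and a table of starts held 5 of the 6 genes. *Cngb3* had no entry there. Capitals mark TAATCC, the core of the site bound by the photoreceptor homeodomain factor Crx, which was searched on both strands (GGATTA on the other).

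*Cnga1*, chr5:72642753-72643002, minus strand: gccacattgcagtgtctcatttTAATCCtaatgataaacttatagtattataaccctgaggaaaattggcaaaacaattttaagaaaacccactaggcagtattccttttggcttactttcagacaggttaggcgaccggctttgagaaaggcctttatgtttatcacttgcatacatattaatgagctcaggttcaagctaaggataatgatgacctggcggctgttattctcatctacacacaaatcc
*Cngb1*, chr8:95306586-95306835, minus strand: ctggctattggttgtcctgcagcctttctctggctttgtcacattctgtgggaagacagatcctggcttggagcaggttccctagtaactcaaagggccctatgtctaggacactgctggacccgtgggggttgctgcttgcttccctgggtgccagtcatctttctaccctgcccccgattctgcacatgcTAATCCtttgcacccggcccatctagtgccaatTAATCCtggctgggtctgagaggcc
*Slc24a1*, chr9:64951621-64951870, minus strand: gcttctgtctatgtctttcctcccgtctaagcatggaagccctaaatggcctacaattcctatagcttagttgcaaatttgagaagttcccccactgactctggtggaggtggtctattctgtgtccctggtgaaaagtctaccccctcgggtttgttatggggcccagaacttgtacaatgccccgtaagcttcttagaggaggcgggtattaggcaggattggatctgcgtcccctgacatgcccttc
*Cnga3*, first start, chr1:37218028-37218277, plus strand: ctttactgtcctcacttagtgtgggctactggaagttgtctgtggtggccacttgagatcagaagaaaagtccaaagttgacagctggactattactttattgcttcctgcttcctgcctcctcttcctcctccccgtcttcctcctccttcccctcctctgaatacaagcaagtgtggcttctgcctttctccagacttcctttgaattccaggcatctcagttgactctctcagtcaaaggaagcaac

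*Cnga1* held 1 match, which began 228 bases before the start. *Cngb1* held 2, which began 58 and 25 bases before the start. The windows of *Slc24a1*, of the 2 starts of *Cnga3* and of the 2 starts of *Slc24a2* held none. Among 32851 starts of all genes, 6.25% held at least 1 match and 0.295% at least 2. TGCTGA, a part of the element bound by Maf family factors such as Nrl (TCAGCA on the other strand), was in none of the 7 windows and in 16.1% of all starts. A match says only that these letters are there, and binding was not measured.

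*Cnga3* (NM_009918) encodes the pore-forming alpha subunit of the cone channel and lies on the plus strand at chr1:37275181-37320229. Its level was 54.0, 55.1 and 51.4 FPKM in *Nrl*-/- libraries, against 3.89, 4.86 and 3.23 FPKM in WT libraries. The lowest *Nrl*-/- library was thus far above the highest WT library. The log2 fold change was 3.46 (SE 0.11, 95% CI 3.22 to 3.70, adjusted p = 2.5e-08 from limma), or 11-fold in FPKM + 1, the fifteenth largest rise.

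*Cngb3* (NM_013927), encodes the beta subunit of the cone channel, and its rise was the larger of the cone subunits as estimated. It lies on the plus strand at chr4:19207997-19437770, spans 230 kb in 18 exons, and has the pseudogene *Gm11877* inside it on the same strand. *Cngb3* was at 89.5, 87.0 and 77.3 FPKM in *Nrl*-/- libraries, against 3.63, 4.21 and 3.29 FPKM in WT libraries. The log2 fold change was 4.19 (SE 0.08, adjusted p = 1.4e-09 from limma), or 18.2-fold in FPKM + 1, the third largest rise of all transcripts. The *Nrl*-/- libraries of *Cngb3* were all above those of *Cnga3*, whereas in WT retina the levels of *Cnga3*, at 3.99 ± 0.819 FPKM, and *Cngb3*, at 3.71 ± 0.464 FPKM, did not differ beyond their spread (SD, n = 3).

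*Slc24a2* encodes the exchanger first assigned to cones, which is also made by neurons of the brain. It lies on the minus strand at chr4:86629028-86876381 and was measured as 2 transcripts. NM_001110240 was at 17.8, 18.2 and 19.5 FPKM in *Nrl*-/- libraries, against 7.63, 6.62 and 6.36 FPKM in WT libraries, a log2 fold change of 1.31 (SE 0.07, 95% CI 1.14 to 1.48, adjusted p = 1.5e-06 from limma). NM_172426 was at 13.2, 13.03 and 14.5 FPKM in *Nrl*-/- libraries, against 5.15, 4.50 and 4.54 FPKM in WT libraries, a log2 fold change of 1.35 (SE 0.07, 95% CI 1.19 to 1.51, adjusted p = 9.2e-07 from limma). The 2 transcripts therefore rose by similar amounts, 2.48-fold and 2.54-fold in FPKM + 1, and stood at ranks 205 and 195 among rises, well behind the cone channel subunits. Summed ON bipolar markers, of which 3 of 6 were higher and 1 was lower, ranged over 374 to 420 FPKM in *Nrl*-/- and 232 to 260 FPKM in WT libraries, and their part in the *Slc24a2* values was not tested.

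Ordered by level, *Cngb3* came first in *Nrl*-/- retina, followed by *Cnga3*, *Slc24a2* (NM_001110240 above NM_172426), *Slc24a1*, *Cngb1* and *Cnga1*, and no neighbors in this order overlapped between their *Nrl*-/- libraries. In WT retina the order was *Slc24a1*, *Cnga1*, *Cngb1*, *Slc24a2*, *Cnga3* and *Cngb3*. There the WT libraries of *Slc24a1* overlapped those of *Cnga1*, those of *Slc24a2* NM_172426 overlapped those of *Cnga3*, and those of *Cnga3* overlapped those of *Cngb3*.

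The balance between the 2 *Slc24a2* transcripts was compared directly. On the log2(FPKM + 1) scale NM_172426 less NM_001110240 was -0.40, -0.45 and -0.41 in *Nrl*-/- libraries, against -0.49, -0.47 and -0.41 in WT libraries. The change in this difference was 0.04 (95% CI -0.05 to 0.13, adjusted p = 0.75 from limma over 2997 isoform differences). Such differences passed the threshold in 1.47% of all cases (0.400% higher and 1.07% lower in *Nrl*-/- retina). For *Slc24a2* the interval leaves room for a shift of up to 0.13 on the log2(FPKM + 1) scale in favor of NM_172426. Replacing the added 1 by 0.1 raised the estimate to 0.084 (SE 0.037, adjusted p = 0.45 from limma), which did not pass the threshold either. The bound of 0.13 therefore holds for log2(FPKM + 1) only.

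**Figure D2:**
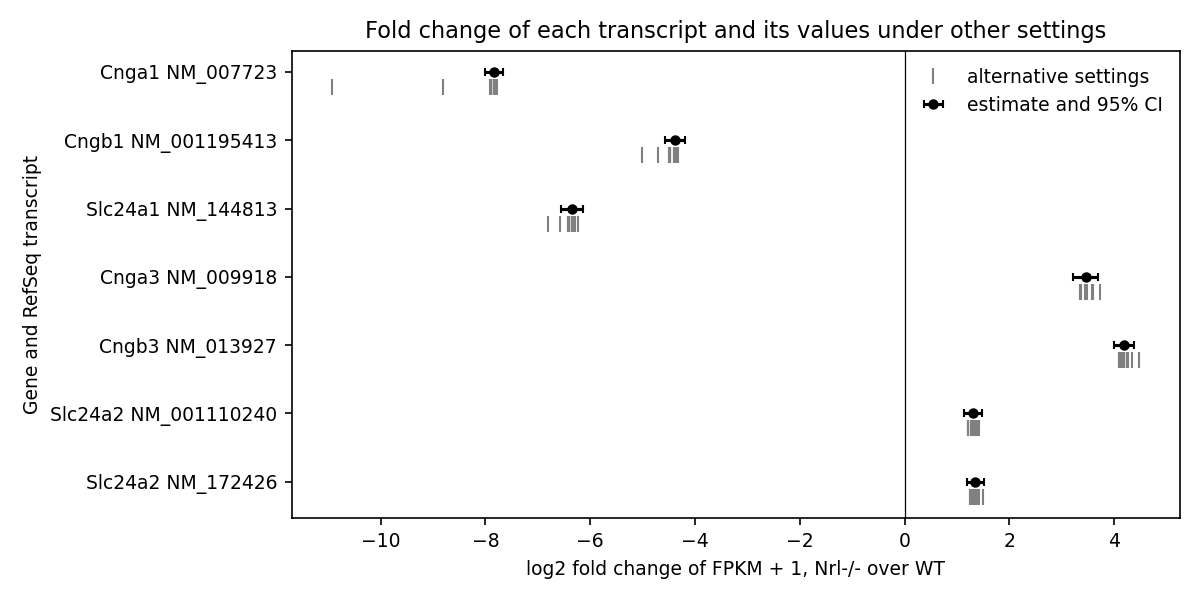
Log2 fold change of FPKM + 1, *Nrl*-/- over WT, for each transcript as a black dot with its 95% confidence interval, and as grey ticks its value under each alternative setting. The 7 estimates keep their side of 0 under all settings, and the tick farthest out, -10.93 for *Cnga1*, is that with 0.1 added to the FPKM.

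The proportion of the subunits within a library was taken next, since alpha and beta subunits assemble into 1 channel. *Cnga1* was far below *Cngb1* in *Nrl*-/- libraries, with FPKM ratios of 0.0181, 0.00922 and 0.00989, but above it in WT libraries, with ratios of 3.76, 4.57 and 5.41. *Cnga3* over *Cngb3* was 0.603, 0.633 and 0.665 in *Nrl*-/- libraries, against 1.07, 1.15 and 0.982 in WT libraries. On the log2(FPKM + 1) scale these ratios differed between genotypes by -3.45 for the rod and -0.73 for the cone subunits, so that in both channels the alpha subunit was lower relative to the beta subunit in *Nrl*-/- retina. The first of these differences depends on the *Cnga1* values near 0, and with a pseudocount of 0.1 it was -5.92. It also counts all *Cngb1* FPKM as the beta subunit.

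Rod and cone counterparts stood in opposite order in the 2 genotypes. *Cngb1* over *Cngb3* was 0.0173, 0.0174 and 0.0183 in *Nrl*-/- libraries, against 15.3, 12.8 and 13.7 in WT libraries. *Slc24a1* over *Slc24a2* (NM_001110240) was 0.140, 0.137 and 0.0916 in *Nrl*-/- libraries, against 35.1, 41.6 and 38.2 in WT libraries. *Cnga1* was the lower of the pair with *Cnga3* in every *Nrl*-/- library and 50.7 to 75.2 times as high as *Cnga3* in WT libraries. In each of the 5 ratios the genotypes did not overlap. The two-sided exact permutation test gave p = 0.1 for each, also after Benjamini-Hochberg adjustment over the 5, which is the smallest p that 3 against 3 libraries allow.

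**Figure D3:**
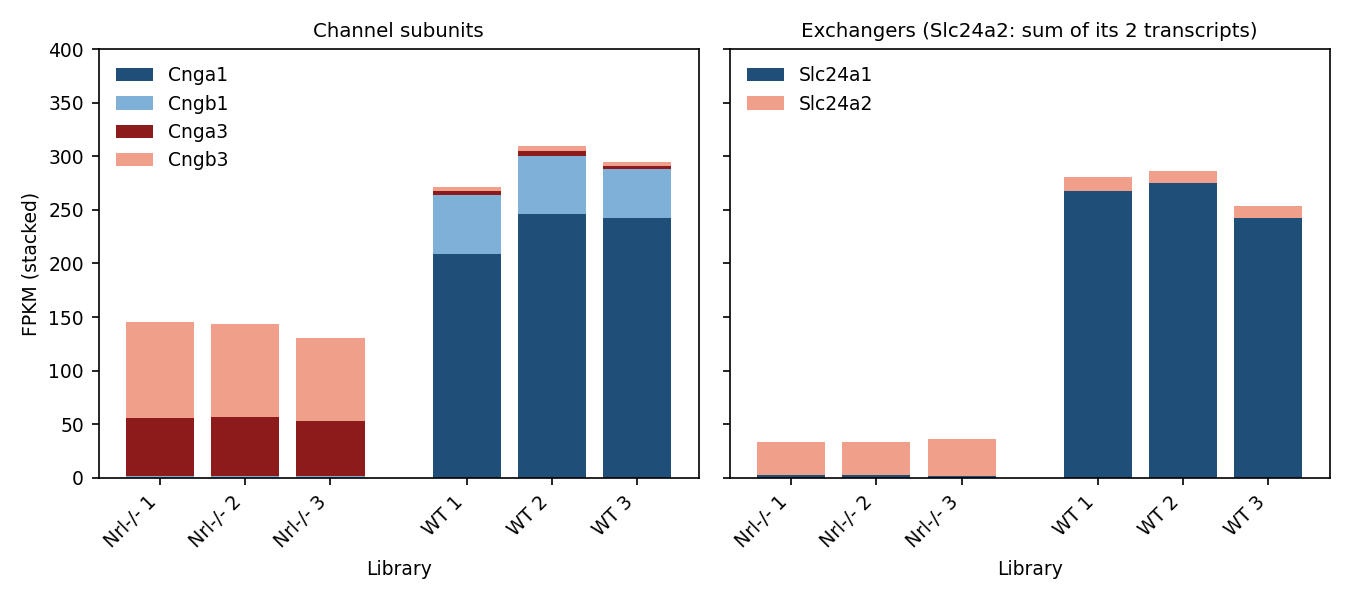
FPKM of the channel subunits (left) and of the exchangers (right) stacked for each library, *Nrl*-/- to the left of WT, with rod genes in blue and cone genes in red. The *Nrl*-/- bars are almost wholly *Cnga3* and *Cngb3* on the left and *Slc24a2* on the right. The WT bars are almost wholly *Cnga1* and *Cngb1* on the left and *Slc24a1* on the right. The exchanger bars differ in height more than the channel bars, and *Slc24a4* is not in them.

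Summed over the 4 subunits, channel transcripts were at 145, 144 and 130 FPKM in *Nrl*-/- libraries, against 271, 309 and 294 FPKM in WT libraries. *Cnga3* and *Cngb3* made up 98.9% ± 0.0170 of this sum in *Nrl*-/- and 2.64% ± 0.376 in WT retina (SD, n = 3 each). The 2 kinds of subunit differed in opposite directions. Alpha subunits summed to 53.5 ± 1.93 FPKM in *Nrl*-/- and 237 ± 21.1 FPKM in WT retina, whereas beta subunits summed to 86.1 ± 6.55 FPKM in *Nrl*-/- and 55.1 ± 6.06 FPKM in WT retina (SD, n = 3 each). The beta sum was thus higher in every *Nrl*-/- library than in any WT library, and the alpha sum lower. The beta sum counts all *Cngb1* FPKM, which is not separated from the free glutamic acid-rich products.

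The exchanger sum differed more between genotypes than the channel sum. *Slc24a1* and both *Slc24a2* transcripts together were at 33.5, 33.7 and 35.8 FPKM in *Nrl*-/- libraries, against 281, 286 and 254 FPKM in WT libraries. *Slc24a2* made up 93.4% ± 1.38 of it in *Nrl*-/- and 4.25% ± 0.339 in WT retina (SD, n = 3 each). *Slc24a4*, whose exchanger also works in mouse cones and which was no member of the chosen set, would bring the sum to 77.1 ± 1.17 FPKM in *Nrl*-/- and 290 ± 19.8 FPKM in WT retina (SD, n = 3 each). None of these sums overlapped between genotypes, and the two-sided exact permutation test gave p = 0.1 for each, the smallest it can give here.

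The authors' second alignment, with TopHat, gives 1 pooled FPKM per genotype with no replicates, in 10 transcripts of the 6 genes. Both *Cnga1* transcripts were listed at 0 in *Nrl*-/- retina, against 242 and 11.3 FPKM in WT retina. *Cngb1* was at 2.17 FPKM in *Nrl*-/- and 78.4 FPKM in WT retina, and *Slc24a1* at 2.19 FPKM in *Nrl*-/- and 263 FPKM in WT retina. The *Cngb1* locus used there equals the shorter model of 45.1 kb. The cone subunits were again higher in *Nrl*-/- retina, *Cngb3* with 96.3 FPKM against 4.13 FPKM in WT retina. The main beta subunits, *Cngb3* in *Nrl*-/- and *Cngb1* in WT retina, were closer in level here than by BWA. The BWA means were 84.6 FPKM for *Cngb3* in *Nrl*-/- and 51.4 FPKM for *Cngb1* in WT retina. A second *Cnga3* transcript, which the BWA table does not list, was at 4.54 FPKM in *Nrl*-/- and 0.549 FPKM in WT retina. All 3 *Slc24a2* transcripts were higher in *Nrl*-/- retina, by 2.11-fold to 3.59-fold, with sums of 32.6 FPKM in *Nrl*-/- and 11.9 FPKM in WT retina. The most abundant rose 3.08-fold and the next 2.11-fold, less alike than the rises of the BWA transcripts. These pooled values have no spread, and the transcripts were not matched between the alignments.

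Most other calcium carriers did not pass the test. Of 10 measured calcium exchangers and plasma membrane pumps outside the set, 2 were higher, 0 were lower and 8 did not pass the test, with log2 fold changes of -0.14 to 0.08, beside 28.3% higher and 10.2% lower over all 12145 genes (38.6% in either direction). By limma at an unadjusted p under 0.05, 0 of the 10 were lower, and an ordinary linear model also called 0 lower. The median was -0.03, and 0.09 over all genes. *Slc24a4* was at 42.4, 43.6 and 42.4 FPKM in *Nrl*-/- libraries, against 19.1, 16.2 and 13.03 FPKM in WT libraries, a log2 fold change of 1.37 (SE 0.11, adjusted p = 1.7e-05 from limma). *Slc8a3*, a sodium/calcium exchanger that needs no potassium, was at 35.8, 35.8 and 27.1 FPKM in *Nrl*-/- libraries, against 9.63, 9.20 and 8.13 FPKM in WT libraries, a log2 fold change of 1.75 (SE 0.11, adjusted p = 2.7e-06 from limma). The rise of *Slc24a4* was close in size to that of *Slc24a2*.

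The olfactory channel genes *Cnga2* and *Cnga4* were not among the transcripts analysed here. HCN channels open on hyperpolarization and bind cyclic nucleotides, and of the 3 HCN genes reported here 1 was called higher and 2 did not pass the test, beside 28.3% of all genes called higher. The call of *Hcn2*, at 5.79 ± 0.236 FPKM in *Nrl*-/- and 4.83 ± 0.468 FPKM in WT retina (SD, n = 3 each), was marginal (log2 fold change 0.22, adjusted p = 0.045 from limma). It was lost under 9 of 16 alternatives, 5 of them those without *Nrl*-/- replicate 1, 2 or 3 or WT replicate 2 or 3, each of which left 0 of these genes higher. *Hcn3*, at 7.76 ± 0.461 FPKM in *Nrl*-/- and 6.22 ± 1.35 FPKM in WT retina (SD, n = 3 each), had a log2 fold change of 0.30 and did not pass the test (adjusted p = 0.098 from limma).

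Of 7 reported genes for proteins that bind or modulate the rod channel, 2 were lower, 0 were higher and 5 did not pass the test (log2 fold changes -0.06 to 0.12), beside 10.2% lower and 28.3% higher over all genes. By limma at an unadjusted p under 0.05, 0 of these were higher, as by an ordinary linear model, and without WT replicate 3 limma called 1 higher. The lower ones were the disc rim genes *Prph2*, at 366 ± 5.09 FPKM in *Nrl*-/- and 1449 ± 78.7 FPKM in WT retina, and *Rom1*, at 229 ± 7.18 FPKM in *Nrl*-/- and 949 ± 47.9 FPKM in WT retina (SD, n = 3 each). Their log2 fold changes of -1.98 and -2.04 were smaller in size than that of *Cngb1*, whose glutamic acid-rich part binds both proteins.

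Genes for cGMP, the ligand of both channels, were taken in 2 unlike lists. The rod list held genes of synthesis and breakdown, and the cone list held genes of breakdown only. Of 6 genes on the rod list 5 were lower and 1 was higher, with a median log2 fold change of -2.11, and both genes on the cone list were higher. Over all genes 10.2% were lower and 28.3% higher, and the median was 0.09. The rod phosphodiesterase gene *Pde6b* was at 15.3 ± 0.343 FPKM in *Nrl*-/- and 364 ± 28.7 FPKM in WT retina, and the guanylate cyclase gene *Gucy2f* at 0.602 ± 0.0333 FPKM in *Nrl*-/- and 35.8 ± 4.97 FPKM in WT retina (SD, n = 3 each). Their log2 fold changes were -4.48 and -4.51, beside -4.39 for *Cngb1*. *Gucy2f* was under 1 FPKM in every *Nrl*-/- library, and with 0.1 added to the FPKM the values were -4.56 for *Pde6b*, -5.67 for *Gucy2f* and -5.01 for *Cngb1*. The cyclase activator gene *Guca1b* had a log2 fold change of -3.02 and the phosphodiesterase inhibitor gene *Pde6g* of -1.20, which was -0.71 after quantile normalization. *Guca1a* and *Gucy2e*, whose products serve rods and cones alike, stood on the rod list only. They had log2 fold changes of 0.68 and -0.65, and they are named after their values were seen. The cone phosphodiesterase genes *Pde6c* and *Pde6h* had log2 fold changes of 3.91 and 2.81, with *Pde6c* at 208 ± 18.4 FPKM in *Nrl*-/- and 12.9 ± 0.975 FPKM in WT retina (SD, n = 3 each).

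**Figure D4:**
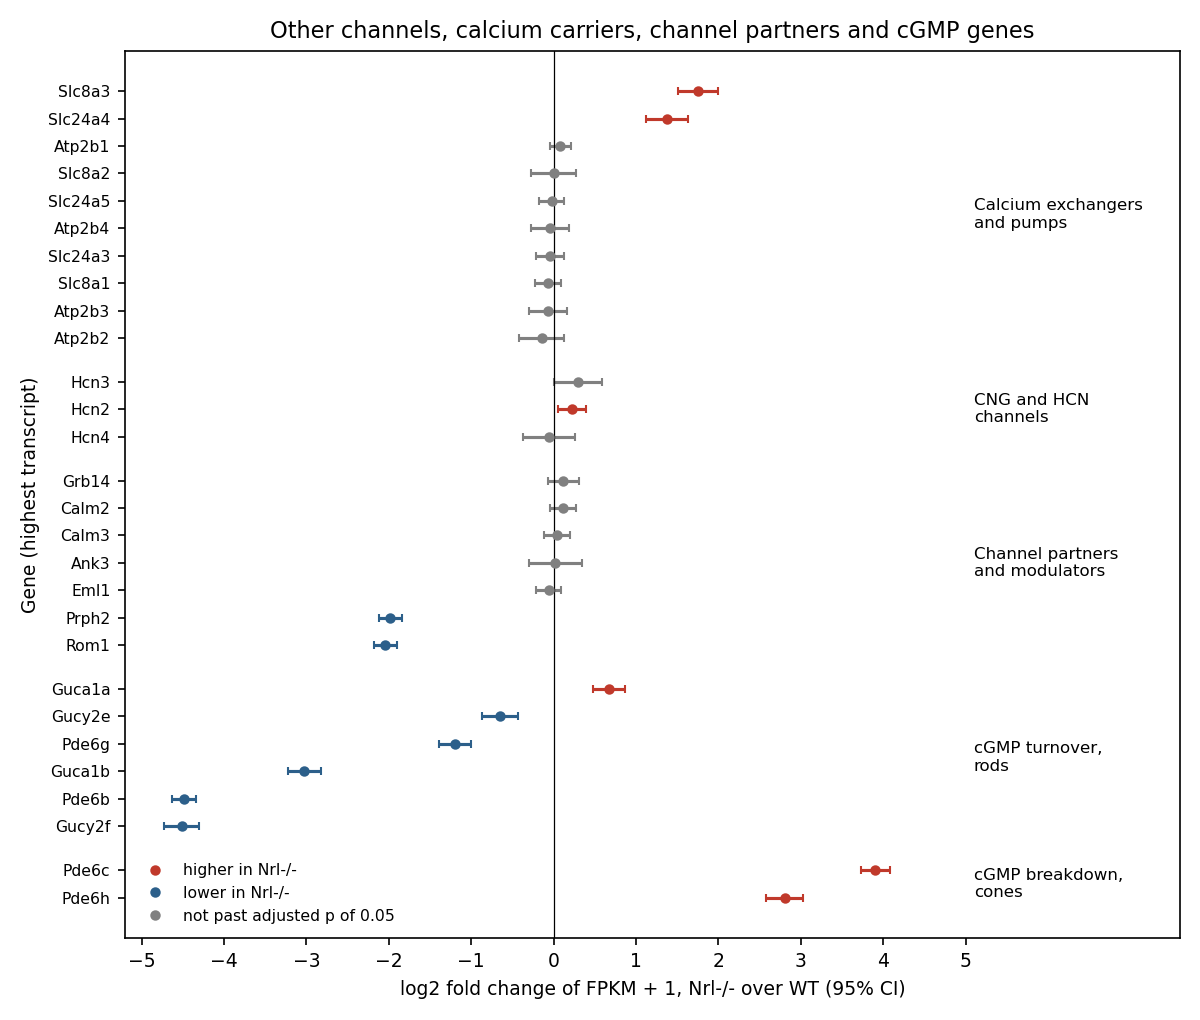
Log2 fold change of FPKM + 1, *Nrl*-/- over WT, with 95% confidence intervals for the highest transcript of each gene reported from 5 lists, red where higher, blue where lower and grey where the adjusted p was not under 0.05. Most calcium carriers lie near 0, whereas the cGMP genes of the rod list lie mainly below 0 and the cone phosphodiesterase genes above it.

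The transcripts most like each of the 6 genes were found by Euclidean distance of log2(FPKM + 1), centered on the mean over the 6 libraries. This measure follows the size of the difference between genotypes first, so for genes near or below 1 FPKM it depends on the 1 that was added, and it was run again with 0.1 in its place, a choice made after seeing the data. The nearest gene to *Cnga1* was *Nr2e3*, an orphan nuclear receptor of rods, at a distance of 0.154, and at 0.391 with 0.1 added. *Nrl* came next at 0.463, but lay at 2.31 with 0.1 added. *Slc24a1* lay nearest to the potassium channel gene *Kcnj14* in both, at 1.11 and, with 0.1 added, at 0.383.

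*Cngb1* lay nearest to *Pde6b* at 0.231, *Gucy2f* at 0.262 and *Gnb1*, the beta subunit of the rod G protein, at 0.266. These 3 were not its nearest with 0.1 added, where *Aqp1* came first at 0.385 and *Pde6b* lay at 0.594. *Cnga3* kept its nearest 3, which were *Gulo* at 0.306, the cone G protein gene *Gnat2* at 0.310 and *Gngt2* at 0.354. *Cngb3* lay nearest to the cone opsin gene *Opn1sw* at 0.281 and to *Pde6c* at 0.477, and with 0.1 added to *Ermap* at 0.439, with *Opn1sw* at 0.463. *Slc24a2* lay nearest to *Nrn1l* at 0.113, *Wdr31* at 0.121 and *Mfsd4* at 0.127, none of which was on the rod or cone marker lists, and with 0.1 added to *Mfsd4* at 0.121.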

How the data were processed

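Whole retina RNA of 3 *Nrl*-/- and 3 WT mice was sequenced by the authors as single reads of TruSeq libraries on a Genome Analyzer IIx. Reads were aligned by the authors with BWA to mm9, and FPKM of RefSeq isoforms was computed in Partek Genomics Suite. Deposited values are log2(FPKM + 1) per library, rounded to 2 decimals and kept by the authors where 1 or more of the 6 libraries reached an FPKM of 1. A deposited TopHat table gives 1 pooled FPKM per genotype, and its fold changes and p-values, the authors' own comparisons, were not used.

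The deposited log2 values were turned back into FPKM here, with the added 1 removed. A linear model of genotype was fitted to the 15142 mRNA transcripts with limma 3.58.1 in R 4.3.3 (trended prior variance, Benjamini-Hochberg adjustment) and tested on simulated data. A gene with several transcripts stands in the lists by its highest one. Promoters, TopHat sums and plots used Python 3.11.15 with matplotlib 3.10.9, pandas 2.3.3 and numpy 2.4.6, and the other sums used R. Gene positions are those of NCBIM37, and sequences before start sites and their positions are those of GRCm38.p6. Members, lists and tests were chosen with earlier results of these data known. Named are all member transcripts, *Nrl*, up to 4 called and 3 uncalled genes of each list, and the 3 nearest patterns of each member. Alternatives were 2 other pseudocounts, 2 filters on low values, limma without a trend, an ordinary linear model, 3 scalings, the replicate number as a block, omission of each library in turn, and FPKM summed per symbol. Same-numbered libraries of the genotypes deviated from their group means with correlations of 0.0286, 0.0237 and 0.124. Differently numbered libraries had correlations of -0.0895 to 0.0729. Whether same-numbered libraries were prepared together was not tested, and the main model left the number out. No 2 libraries held identical values. Some genes of the lists are not reported here and are left out of the list counts.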

Additional observations from a re-analysis of the deposited data

How the results depend on the processing

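The 7 transcripts kept their direction and their call under all 17 alternatives run for them, with a largest adjusted p of 0.0025 from an ordinary linear model, for *Slc24a2* NM_001110240. The filters, the other models and the replicate block cannot move the log2 fold change and bear on the call only. FPKM summed per symbol gives *Slc24a2* a value for the gene, not for each transcript. The ranges were -10.93 to -7.77 for *Cnga1*, -5.01 to -4.33 for *Cngb1*, -6.81 to -6.24 for *Slc24a1*, 3.35 to 3.73 for *Cnga3*, 4.09 to 4.48 for *Cngb3*, and 1.21 to 1.42 and 1.25 to 1.502 for the *Slc24a2* transcripts. Over all transcripts 4047 were higher, against 2459 with median-of-ratios scaling, 2466 with upper-quartile scaling and 2451 with quantile normalization. Those scalings moved the median log2 fold change of all transcripts, 0.08 as deposited, to about 0, and higher transcripts made up 72.7% of calls as deposited and 51.9% to 52.3% after them. The cause was not tested. Leaving out 1 library gave 2784 to 4180 higher and 1122 to 1578 lower transcripts.

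Of the HCN genes reported 1 was higher, but 0 with an ordinary linear model and with each of the 3 scalings, 2 with the replicate block and 0 to 2 when 1 library was left out. Reported channel partners that were higher numbered 0 to 1 when 1 library was left out. With the replicate number as a block, *Cnga1* had a log2 fold change of -7.84 and *Cngb3* of 4.19, 3973 transcripts were higher and 1520 lower, and the block changed the call of *Hcn3* (adjusted p = 0.03 from limma) and of none of the 7 transcripts or the other list genes named. The ratios kept their sign under 8 alternatives each. Counting error was not computed for any value, the *Cnga1* values near 0 included.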
